A study of Homo sapiens with 6 samples.

Results

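The genes described here are 10 markers by which retinal pigment epithelium is commonly recognised: MITF, OTX2, PAX6, RPE65, RLBP1, BEST1, TYR, TYRP1, PMEL and SERPINF1. They were chosen by symbol, and each symbol matched 1 Ensembl ID among the 38900 rows of the deposited table. RNA sequencing after polyA selection covered 6 libraries of hTERT RPE1, an established human line of retinal pigment epithelial origin immortalised with telomerase. In both groups the cells had been held confluent for 5 days, which brought them to quiescence, and were then given fresh medium for 6 hours. For 3 libraries this medium held combretastatin A4 (CA4, 100 nM), which takes microtubules apart by binding tubulin, and for 3 it held the solvent DMSO at 0.1%. The line stands in for the tissue with limits, since it is a single immortalised line grown as a culture and was not compared here with native epithelium. Nothing in the labels says whether replicates were separate cultures, so p-values measure the spread between these libraries, which may be technical.

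The retinal pigment epithelium is a pigmented cell layer behind the photoreceptors. MITF, OTX2 and PAX6 are transcription factors that establish it from the optic vesicle, and MITF and OTX2 act together on pigment genes. Mature cells carry out the visual cycle, in which RPE65 remakes 11-cis retinoid and RLBP1 carries it. They make melanin with the enzymes TYR and TYRP1 on fibrils of PMEL, pass chloride through BEST1 and secrete the antiangiogenic factor SERPINF1, also called PEDF.

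In quiescent DMSO cells the 3 transcription factors were present at moderate levels, while the 7 genes of pigment, visual cycle, channel and secretion were low or close to 0. The means of all 3 factors were lower in CA4. OTX2 fell to 0.457 times and PAX6 to 0.602 times its DMSO mean, and both passed the test across all genes. MITF stood at 0.516 times its DMSO mean but did not pass. No difference was called in the 4 other members that could be tested.

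Promoters from RefSeq (GRCh38.p14, 250 bases before to 50 after a start site) were found for 7 of the 10 members, in 18 windows because PAX6, MITF and OTX2 have several start sites. No window was matched for BEST1, PMEL or SERPINF1. The sequences shown are those of TYR, TYRP1 and RLBP1, mature-function genes that were almost without reads here, and of OTX2, a factor that was present and fell. Capitals mark CATGTG, an E-box that MITF binds in pigment genes, and TAATCC, a homeobox motif of the OTX family, searched on both strands (CACATG and GGATTA). They are given from 5′ to 3′ on the strand of the gene. TYR lies on the plus strand at chr11:89177625-89177924, TYRP1 on the plus strand at chr9:12693135-12693434, RLBP1 on the minus strand at chr15:89221530-89221829 and OTX2 on the minus strand at chr14:56810430-56810729.
TYR: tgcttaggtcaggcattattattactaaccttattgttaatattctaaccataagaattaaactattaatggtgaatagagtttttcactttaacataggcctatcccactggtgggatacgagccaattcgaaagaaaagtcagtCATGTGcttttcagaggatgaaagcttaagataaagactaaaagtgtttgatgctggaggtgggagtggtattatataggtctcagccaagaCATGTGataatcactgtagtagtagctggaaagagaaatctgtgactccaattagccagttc
TYRP1: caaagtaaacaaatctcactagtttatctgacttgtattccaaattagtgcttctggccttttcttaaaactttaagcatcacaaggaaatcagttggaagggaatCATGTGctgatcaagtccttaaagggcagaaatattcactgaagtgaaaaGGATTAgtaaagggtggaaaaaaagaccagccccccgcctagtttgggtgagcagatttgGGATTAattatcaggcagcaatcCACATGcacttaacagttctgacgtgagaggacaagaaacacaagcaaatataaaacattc
RLBP1: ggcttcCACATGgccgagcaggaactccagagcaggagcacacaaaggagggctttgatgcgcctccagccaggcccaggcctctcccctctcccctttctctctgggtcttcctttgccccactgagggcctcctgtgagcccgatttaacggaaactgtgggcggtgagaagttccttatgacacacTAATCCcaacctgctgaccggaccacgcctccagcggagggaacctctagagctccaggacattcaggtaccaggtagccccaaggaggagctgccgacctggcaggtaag
OTX2: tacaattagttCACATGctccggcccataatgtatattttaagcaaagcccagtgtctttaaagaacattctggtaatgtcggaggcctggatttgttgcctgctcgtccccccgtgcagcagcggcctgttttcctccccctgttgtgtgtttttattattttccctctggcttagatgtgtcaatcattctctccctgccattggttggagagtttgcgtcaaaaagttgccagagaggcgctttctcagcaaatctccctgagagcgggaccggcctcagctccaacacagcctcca

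The TYR window held 2 CATGTG matches, beginning at -104 and -12 from the start site. TYRP1 held 2, at -144 and -11, and 2 TAATCC matches, at -94 and -34. RLBP1 held 1 of each, CATGTG at -244 and TAATCC at -61, and the OTX2 window shown held a CATGTG match at -239. The other OTX2 window, the 3 MITF windows, the RPE65 window and 7 of the 9 PAX6 windows held no match to any motif searched, so the windows printed are not typical of the members. Over the 18 windows CATGTG occurred in 6, belonging to 5 members, and TAATCC in 2. Of all 35116 promoters of the same length, 11.1% held CATGTG and 6.36% held TAATCC. The related E-box CACGTG, present in 7.26% of all promoters, was in 0 of the 18. A match is only the occurrence of these letters, and binding was not measured.

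The deposited values are reads divided by 1 factor per library, called normalized counts, and 1 read was worth 0.935 to 1.12 of them. Libraries held 19524936 to 22538004 recovered reads. A value of 0 allows up to 3 reads, 2.80 to 3.37 normalized counts, which covers counting error only. Levels are compared between genes as normalized counts per kilobase, using the union of a gene's exons in GENCODE 29 (GRCh38, the build named in the submitters' processing notes). The percentile of a level is its place among 20039 genes with a read in any library and an annotated length, whose median in DMSO was 26.1 per kilobase. In each group the 10 members together held little RNA, 0.0108% to 0.0157% of the reads of DMSO libraries and 0.00575% to 0.0088% of those of CA4 libraries. Between 91.5% and 95.8% of the members' reads came from MITF, OTX2 and PAX6.

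OTX2 (ENSG00000165588, minus strand, chr14:56799905-56810479) encodes a homeodomain factor required for the epithelium and the forebrain. Its DMSO libraries held 423, 630 and 547 normalized counts in replicates 1, 2 and 3. This amounted to 163 ± 31.9 per kilobase (SD, n = 3), at percentile 78.7. MITF (ENSG00000187098, plus strand, chr3:69739435-69968337) encodes the basic helix-loop-helix leucine zipper factor that controls pigment genes. It had 620, 1085 and 951 normalized counts in DMSO, or 123 ± 33.3 per kilobase (SD, n = 3) at percentile 73.6. PAX6 (ENSG00000007372, minus strand, chr11:31784779-31818062), the paired-box regulator of eye development, had 1047, 1357 and 1328 normalized counts. Divided by length this was 59.8 ± 8.22 per kilobase (SD, n = 3), at percentile 60.6. In all 3 factors replicate 1 was the lowest DMSO library.

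The order of these 3 factors was not settled by the data. The DMSO ranges of OTX2 and MITF overlapped, at 129 to 193 and 86.3 to 151 per kilobase. PAX6 lay below both at 50.3 to 65.2, but its annotated exons unite to 20812 bases against 7290 in its longest transcript. With the longest transcript as the length, levels were 184 ± 49.7 for MITF, 178 ± 34.7 for OTX2 and 171 ± 23.5 for PAX6 per kilobase (SD, n = 3 each), and the ranges of neighbours overlapped. The gap between the 3 factors and the other members held under both lengths.

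RPE65 (ENSG00000116745, minus strand, chr1:68428822-68449959), the isomerohydrolase of the visual cycle, had 21.2, 20.6 and 40.8 normalized counts in DMSO. Its level of 10.6 ± 4.41 per kilobase (SD, n = 3) lay at percentile 42.7. Its partner RLBP1 (ENSG00000140522, minus strand, chr15:89209869-89221751), the cellular retinaldehyde-binding protein, had 2, 1 and 6 reads in the 3 DMSO libraries and 3, 0 and 2 in CA4. That is 1.4 ± 1.3 per kilobase in DMSO (SD, n = 3). The DMSO range of RLBP1 did not reach the range of RPE65.

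Of the pigment genes, 2 had hardly any reads. TYR (ENSG00000077498, plus strand, chr11:89177452-89295759), the enzyme that starts melanin synthesis, had 0, 0 and 1 read in DMSO and 3, 0 and 0 in CA4. TYRP1 (ENSG00000107165, plus strand, chr9:12685439-12710290), a second melanin enzyme, had 1, 0 and 6 reads in DMSO and 0, 5 and 1 in CA4. TYR stayed at or under the limit of 3 reads in every library, and TYRP1 exceeded it in 1 library of each group. PMEL (ENSG00000185664, minus strand, chr12:55954105-55973317), the fibril protein of the melanosome, had 19.3, 8.41 and 19.0 normalized counts in DMSO. Its level was 3.99 ± 1.59 per kilobase (SD, n = 3), at percentile 35.8.

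BEST1 (ENSG00000167995, plus strand, chr11:61949821-61965515), a calcium-activated chloride channel of the basolateral membrane, had 42.5, 89.8 and 99.7 normalized counts in DMSO, or 8.66 ± 3.42 per kilobase (SD, n = 3) at percentile 41.3. SERPINF1 (ENSG00000132386, plus strand, chr17:1761959-1777574), whose product native epithelium secretes in quantity, had 16.4, 15 and 12.3 normalized counts, or 4.75 ± 0.673 per kilobase (SD, n = 3) at percentile 37. The DMSO ranges of RPE65 and BEST1 overlapped, as did those of BEST1 and SERPINF1 and of SERPINF1 and PMEL. All 7 genes lay below the median level of genes with a read. For scale, COL1A1, a fibrillar collagen, stood at 5080 per kilobase and FN1, fibronectin, at 58058.

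**Figure D1:**
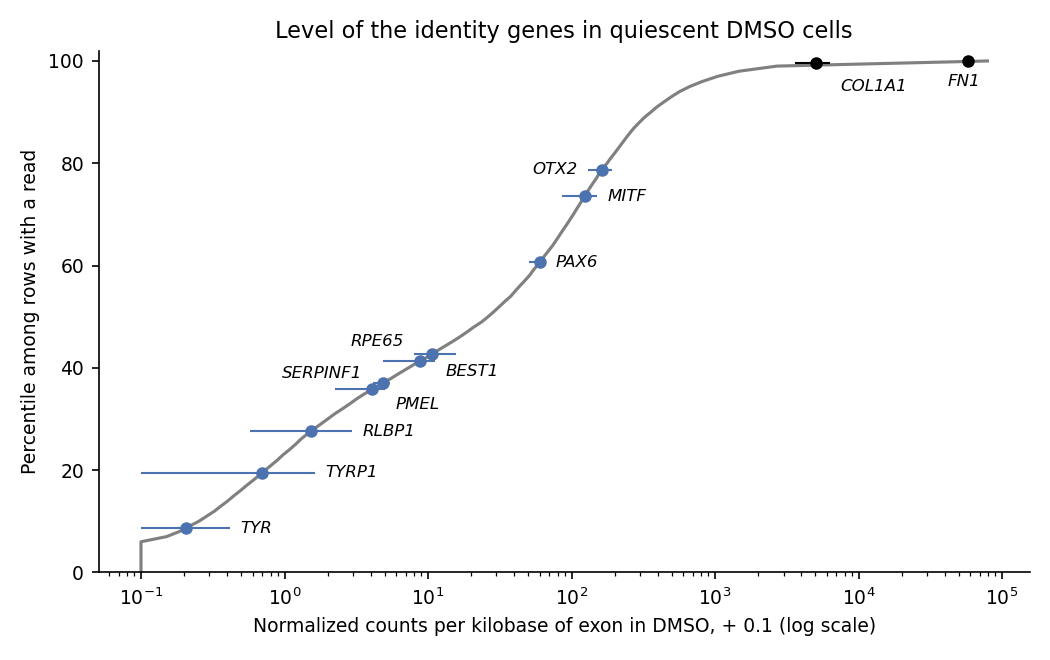
Level of each identity gene in DMSO cells. The horizontal axis is normalized counts per kilobase of exon plus 0.1 on a log scale, the vertical axis is the percentile among genes with a read, the grey curve is all such genes, points are means of 3 libraries and horizontal lines their range. OTX2, MITF and PAX6 sit at percentiles 78.7, 73.6 and 60.6, the other 7 members lie below 50 (members in blue), and COL1A1 and FN1 (black) are shown for scale.

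Some of these reads could belong to neighbours, because the use of strand in counting is not given in the sources used here. Of the exon bases of PAX6, 25.2% also lie in ELP4 on the opposite strand, and 14.2% of those of BEST1 lie in FTH1 on the opposite strand. FTH1, the ferritin heavy chain, had 29857 ± 2530 normalized counts in DMSO (SD, n = 3) against 77.3 ± 30.6 for BEST1. ELP4 had 223 ± 6.24 normalized counts in the DMSO libraries against 186 ± 10.8 with CA4 (SD, n = 3 each), below PAX6 in every library. A further 0.514% of the exon bases of PAX6 lie in AL035078.4, also opposite, which went from 648 ± 89.6 to 1131 ± 241 (SD, n = 3 each), against the direction of PAX6. PMEL shares 2.28% of its exon bases with CDK2, and TYRP1 2.73% with LURAP1L-AS1. MITF, OTX2, RPE65, RLBP1, TYR and SERPINF1 share 0 exon bases with another gene in that annotation. The part of shared reads in any value was not tested.

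The CA4 comparison asks how these genes stood after 6 hours in medium with CA4. In bulk RNA, fewer cells expressing a gene and less RNA per cell cannot be told apart. The 13928 genes whose average over all libraries reached 10 normalized counts were tested with limma's moderated linear model on log2(normalized count + 1) and Benjamini-Hochberg adjustment over all of them, at a threshold of 0.05. By that rule 7 of the 10 members were tested. RLBP1, TYR and TYRP1 were too low, and their reads are given above with no fold change. Of the 7, 2 passed, both lower in CA4, where 4.94% of all tested genes passed, 1.97% lower and 2.97% higher. At an unadjusted p under 0.05 there were 3 of the 7, against 23% of all tested genes. Of the 7, edgeR called 1 and DESeq2 3, where they called 4.62% and 11.6% of all tested genes. The CA4 libraries lay wholly below the DMSO libraries in 3 of the 7 (OTX2, PAX6 and RPE65), and in none wholly above. Among all tested genes the groups were apart in 27.7%, with CA4 below in 13.4% and above in 14.3%. The median log2 fold change of the 7 was -0.69, against -0.01 over all tested genes.

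OTX2 had 226, 255 and 251 normalized counts in CA4 replicates 1, 2 and 3. The groups did not overlap, and the CA4 libraries lay close together, at 244 ± 15.5 against 533 ± 104 in DMSO (SD, n = 3 each). The log2 fold change was -1.11 (SE 0.16, 95% interval -1.49 to -0.73, limma adjusted p = 0.0158). OTX2 kept its call in 11 of the 12 alternatives that used all libraries, the exception being the fit without a variance trend. The call was lost without DMSO replicate 2, DMSO replicate 3, CA4 replicate 1 or CA4 replicate 3 (limma adjusted p from 0.0596 to 0.0816), with log2 fold changes from -1.13 to -0.98.

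PAX6 had 601, 874 and 769 normalized counts in CA4, all below the lowest DMSO library at 1047. Its mean went from 1244 ± 171 to 748 ± 138 (SD, n = 3 each). The log2 fold change was -0.74 (SE 0.16, 95% interval -1.12 to -0.36, limma adjusted p = 0.0483), close to the threshold. The call was lost with no filter on low values, under quantile normalization and in edgeR (adjusted p = 0.0526, 0.0524 and 0.0506), and without the variance trend. It was also lost without the same 4 libraries as that of OTX2, with adjusted p from 0.118 to 0.167 in limma.

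MITF had 322, 647 and 402 normalized counts in CA4. CA4 replicate 2 lay above DMSO replicate 1, at 620, so the groups overlapped by this 1 pair. Its mean was 885 ± 239 with DMSO against 457 ± 170 with CA4 (SD, n = 3 each). The log2 fold change of -0.98 (SE 0.29, 95% interval -1.66 to -0.29) did not pass, with a limma adjusted p of 0.100. Its interval covers the estimates of OTX2 and PAX6, so the missed threshold does not show that MITF behaved otherwise. DESeq2 on the recovered reads called it (adjusted p = 0.0117) and edgeR did not (adjusted p = 0.109). A limma fit with the replicate number as a block called MITF (adjusted p = 0.00375). The labels tie a replicate number to no shared culture or day. Over the 18 alternatives the log2 fold change of MITF ran from -1.26 to -0.75.

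**Figure D2:**
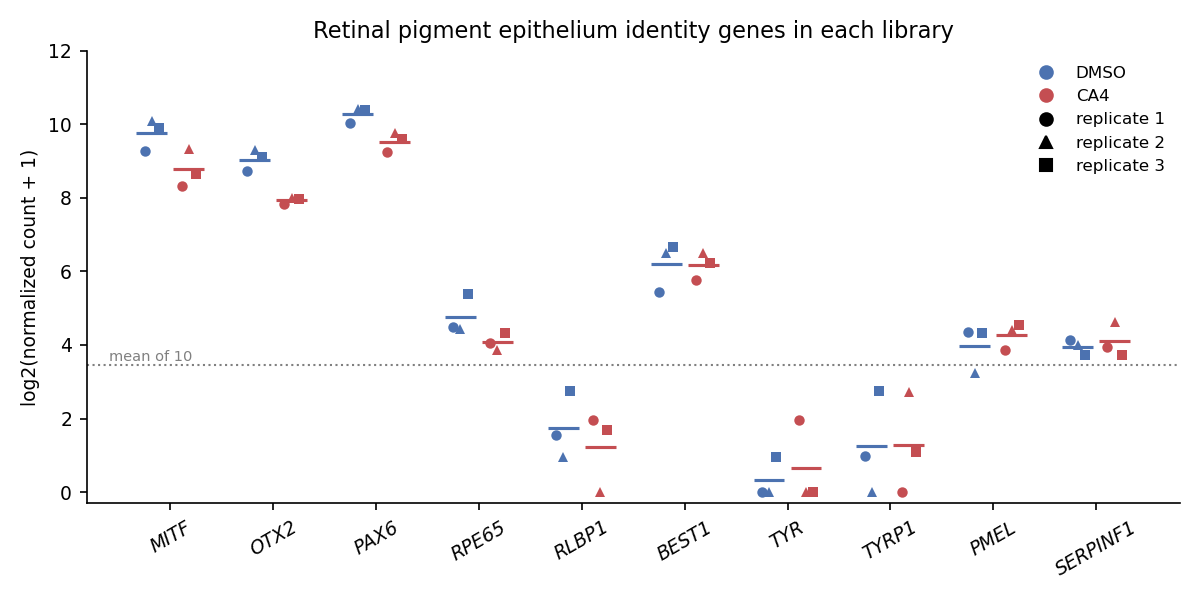
Values of the 10 identity genes in each of the 6 libraries. The vertical axis is log2(normalized count + 1), blue is DMSO, red is CA4, marker shapes are replicate numbers, short lines are group means and the dotted line marks 10 normalized counts. CA4 points of OTX2 and PAX6 lie below all their DMSO points, MITF overlaps by 1 pair, and the other genes overlap except RPE65.

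Of the remaining members, RPE65 had 15.5, 13.5 and 18.9 normalized counts in CA4, just under its lowest DMSO value of 20.6. Its log2 fold change was -0.69 (SE 0.40, 95% interval -1.62 to 0.23, limma adjusted p = 0.347). BEST1 had 53.2, 89.8 and 74.7 in CA4, within the spread of DMSO, and a log2 fold change of -0.03 (95% interval -0.89 to 0.83, limma adjusted p = 0.974). PMEL had 13.5, 20.2 and 22.3, with 0.30 (95% interval -0.76 to 1.37, limma adjusted p = 0.744). SERPINF1 had 14.5, 23.6 and 12.3, with 0.15 (95% interval -0.81 to 1.1, limma adjusted p = 0.871). On this log scale a fall of the size seen in OTX2 lay inside the interval of RPE65 and outside those of BEST1, PMEL and SERPINF1.

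**Figure D3:**
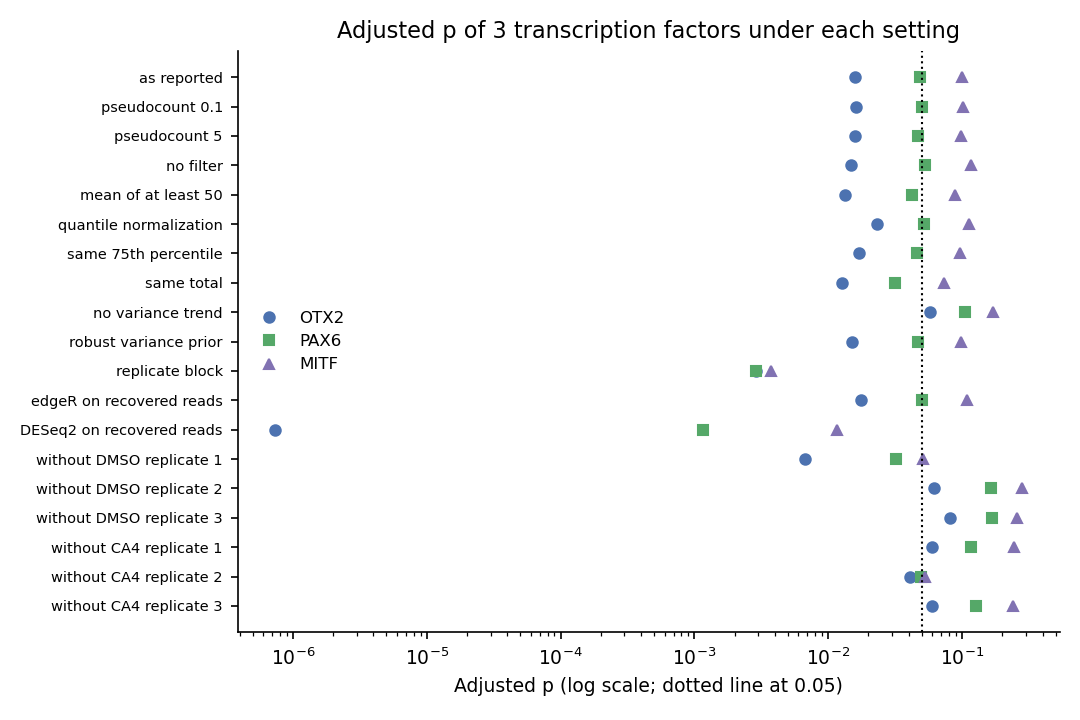
Adjusted p of OTX2, PAX6 and MITF as reported and under each of the 18 alternatives. The horizontal axis is the adjusted p on a log scale with a dotted line at 0.05, each line is a setting, and blue circles are OTX2, green squares PAX6 and purple triangles MITF. OTX2 lies left of the line in 11 of the 12 alternatives with all libraries, PAX6 lies near it, and MITF lies left of it only with the replicate block and in DESeq2.

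Scaling moved the sizes of the differences in OTX2, PAX6 and MITF and not their direction. Bringing every library to the same total shifted the median over all genes by -0.10 on the log2 scale, and it turned the calls over all genes from 413 higher and 275 lower to 279 higher and 523 lower. Under it the log2 fold changes of OTX2, PAX6 and MITF were -1.21, -0.84 and -1.08.

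The genes whose values over the 6 libraries followed those of a factor most closely were looked up by Pearson correlation of log2 values among all tested genes. For OTX2 they were TNS2, USP21 and COQ8A (r from 0.994 to 0.998). For PAX6 they were ZNF490, TSPYL1 and EPS15 (r from 0.997 to 1.00), and for MITF they were MARCKSL1, SHOX2 and DYRK1B (r from 0.997 to 0.999). These correlations describe 6 points that share the difference between groups and were picked as the highest among all tested genes.

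Other genes of the eye field and the epithelium were read from lists, with the 10 members left out. Among 8 other transcription factors, 3 were tested and 1 passed, lower, beside 1.97% of all tested genes. That gene, SIX3, an eye field homeobox factor, had 1118, 1370 and 1244 normalized counts in DMSO and 712, 900 and 858 in CA4, without overlap. Its log2 fold change was -0.60 (SE 0.12, limma adjusted p = 0.0408), and of the 6 fits that each lacked a library it passed in 1, that lacking DMSO replicate 1 (adjusted p 0.034 to 0.143 over the 6). It also missed the threshold with no variance trend (0.0933). At 493 per kilobase in DMSO SIX3 stood above the 3 member factors. SOX9 had the wide ranges of 1150 to 2498 in DMSO and 1583 to 2866 in CA4 and did not pass (log2 fold change 0.42, limma adjusted p = 0.467). SIX6 and PAX2 had 0 reads in all libraries, and LHX2, RAX and TFEC were too low to test.

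Among other genes of the visual cycle and retinoid handling, RGR and TTR had 0 reads in all libraries, and LRAT, RBP4 and CRABP1 were too low to test. The retinol dehydrogenases RDH11, RDH10 and RDH5, which many tissues use, stood at 343, 228 and 52.0 per kilobase in DMSO. Of 10 genes 5 were tested and 0 passed in limma, where 3 had an unadjusted p under 0.05, edgeR called 0 and DESeq2 called 2, beside 23%, 4.62% and 11.6% of all tested genes. RDH10 went from 1214 ± 182 to 2030 ± 540 and RDH11 from 1893 ± 174 to 1419 ± 149 normalized counts (SD, n = 3 each; limma adjusted p = 0.078 and 0.0755). STRA6 went from 89.7 ± 27.2 to 39.5 ± 20.0, with overlap (SD, n = 3 each; log2 fold change -1.24, limma adjusted p = 0.139). The median log2 fold change of the 5 was -0.42.

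In the pigment list DCT had 0 reads in all libraries, and MLANA, OCA2, SLC45A2, SLC24A5 and MYO7A were too low to test. GPR143, a receptor of the melanosome membrane, was present at 113, 79.5 and 66.5 normalized counts in DMSO and 97.6, 74.1 and 69.1 in CA4, with overlap. Its DMSO level was 34.7 per kilobase, at percentile 53.2. The melanosome glycoprotein GPNMB, also a lysosomal protein of other cells, stood at 1090 per kilobase, the small GTPase RAB32 at 520 and the motor MYO5A at 175. Of 13 genes 7 were tested, with a median log2 fold change of 0.06, and 0 passed in limma. At an unadjusted p under 0.05 there were 2 of the 7, and edgeR called 0 and DESeq2 called 2, beside the same 23%, 4.62% and 11.6% of all tested genes. RAB32 came nearest, at 633 ± 91.8 with DMSO against 1018 ± 168 with CA4 (SD, n = 3 each; log2 fold change 0.68, limma adjusted p = 0.0503). GPNMB had a log2 fold change of -0.30 (limma adjusted p = 0.100).

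Several genes of the cell surface, transport and phagocytosis were abundant. GAS6, the bridging ligand for the phagocytic receptor MERTK, stood at 5265 per kilobase in DMSO, the lactate transporter partner BSG at 4203 and the integrin ITGB5, which binds photoreceptor outer segments, at 3708. MERTK itself had 0, 30.9 and 9.50 normalized counts in DMSO. Not all of the list was abundant, and SLC16A8, AQP1, TRPM1, CLDN19 and CDH1 were too low to test. Of 21 genes 16 were tested, and 1 passed, higher, beside 2.97% of all tested genes, with a list median of 0.08. At an unadjusted p under 0.05 there were 3 of the 16, and edgeR called 1 and DESeq2 3, beside 23%, 4.62% and 11.6% of all tested genes. ATP1B1, the beta subunit of the sodium pump, had 3234, 2321 and 2400 normalized counts in DMSO and rose to 6305, 5215 and 5954 in CA4, without overlap. In limma its log2 fold change was 1.15 (SE 0.14, adjusted p = 0.0108), and the call was lost without DMSO replicate 3 (0.0562) and with no variance trend (0.0561).

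Of 8 secreted and matrix genes all were tested, and 1 passed, higher, beside 2.97% of all tested genes, with a median of 0.25. There were 2 of the 8 at an unadjusted p under 0.05, and edgeR called 1 and DESeq2 2, where the shares of all tested genes were 23%, 4.62% and 11.6%. FGF2, a fibroblast growth factor, had 3164, 2253 and 2916 normalized counts in DMSO and rose to 7031, 5510 and 5815 in CA4, again without overlap. Its log2 fold change was 1.15 (SE 0.15, limma adjusted p = 0.0115), and it lost its call without DMSO replicate 3 (0.0543) and with no variance trend (0.0571). The most abundant genes of the list were CTSD, a lysosomal protease, at 32559 per kilobase and EFEMP1, a matrix glycoprotein, at 11891.

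**Figure D4:**
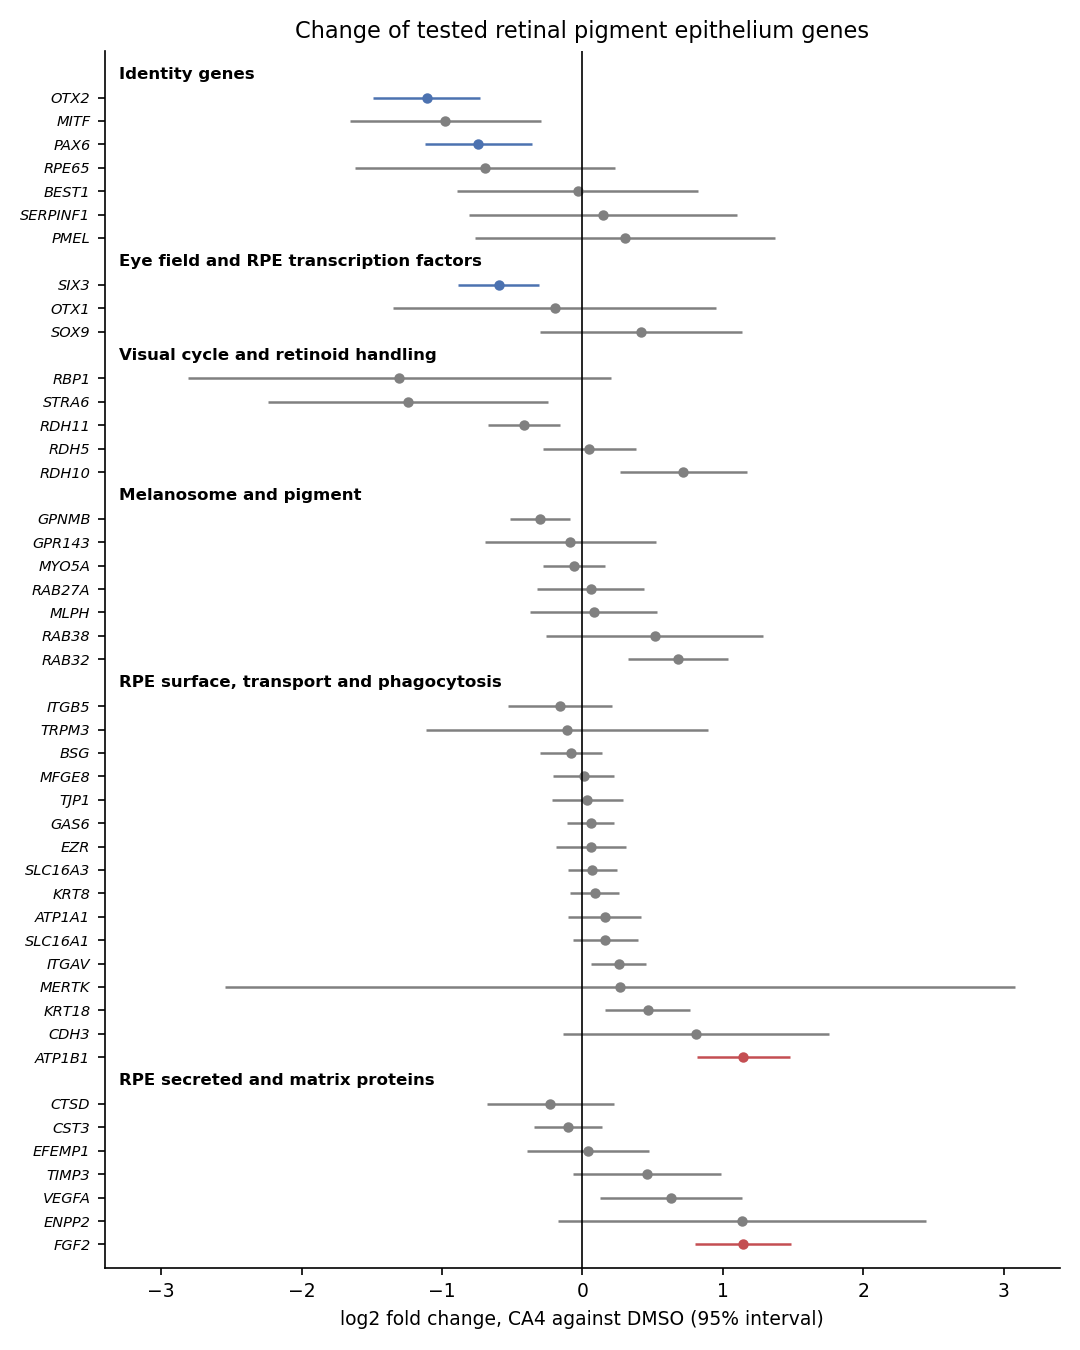
Log2 fold change, CA4 against DMSO, of every tested identity gene and of tested genes of 5 wider retinal pigment epithelium lists. Points are limma estimates, lines their 95% intervals, blue and red mark genes past the adjusted p of 0.05 that were lower or higher in CA4, and grey marks the others. OTX2, PAX6 and SIX3 are the lower genes and ATP1B1 and FGF2 the higher ones.

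Markers of other cells give the setting of these values. Melanocyte genes outside the members (SOX10, MLANA, DCT, EDNRB, KIT and PAX3) were all below the filter, with DCT and PAX3 at 0 reads and sums of 1.09 to 4.35 per kilobase in DMSO and 2.66 to 3.92 in CA4. All 16 mesenchymal genes were tested, with sums of 109010 to 122223 per kilobase in DMSO and 126220 to 140596 in CA4. The genes were uneven in level. FN1, VIM and ACTA2 were the highest of them in DMSO, and COL1A2 was the lowest, at 2.82 per kilobase. The CA4 sums lay above the DMSO sums, but FN1 alone made up 58058 per kilobase in DMSO and 68401 in CA4 on average (limma adjusted p = 0.307), and 9 of the 16 genes were lower in CA4. Among these 16 genes TWIST1 passed lower (log2 fold change -0.80, limma adjusted p = 0.0274) and CDH2 passed higher (0.31, 0.0452), with a median of -0.20. At an unadjusted p under 0.05 there were 8 of the 16, and edgeR called 1 and DESeq2 7, beside 23%, 4.62% and 11.6% of all tested genes. Of the 6 fits that each lacked a library, these 2 genes passed in 1, that lacking DMSO replicate 1. CDH2 also missed the threshold in 6 of the 12 alternatives with all libraries, with adjusted p of 0.107 under quantile normalization, 0.121 at the same total and 0.0501 in edgeR. The part of these values in the results for the members was not tested.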

How the data were processed

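Gene expression was measured in 6 polyA libraries, 3 DMSO and 3 CA4, grouped and numbered by their titles. The deposited values are a signal, reads per gene that the authors divided by 1 factor per library. The submitters' processing notes name Trim Galore 0.6.6, FastQC 0.12.1, Salmon 1.8.0, STAR 2.7.9a, DESeq2 1.44.0 and GRCh38. Annotation release and use of strand are not given in the sources used here. In every column 100% of the values above 0 were whole multiples of 1 step (tolerance 0.01), which gave the recovered reads. If Salmon made the counts, these are rounded estimates.

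Symbols came from a supplied table (29973 rows matched), and lengths, locations and overlaps from GENCODE 29. Rows averaging 10 or more normalized counts over all libraries were tested with limma 3.58.1 (R 4.3.3; mean trend, treatment as the only term) on log2(normalized count + 1). Fold changes are on that scale, which understates low genes. Errors of means are SD over 3 libraries. On the recovered reads, edgeR 4.0.16 and DESeq2 1.42.0 were alternatives, and the scripts were tested on simulated data.

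The members and lists were chosen with earlier results of these data known. All members are named, and in each wider list the genes past the threshold (at most 5) and the 3 most abundant per kilobase. RDH and pigment genes near the threshold, STRA6, GPR143, MERTK, COL1A2 and genes at 0 or under the filter were added after their values were seen. The promoters printed were also chosen after the values were seen. Some genes counted in the wider lists are not reported here by name. The 3 genes most like a member were sought only where its mean was at least 100.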

Additional observations from a re-analysis of the deposited data

How the results depend on the processing

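Leaving out 1 library gave 81 to 994 genes past the threshold against 688, 0 to 2 members against 2, and 0 to 7 genes of the wider lists against 5. Without a variance trend these 3 counts were 103, 0 and 1, where 3 of the 7 tested members had an unadjusted p under 0.05 in limma, against 21.1% of all tested genes. DESeq2 gave 1613 genes and 18 wider list genes, and 3 members. With the replicate block the counts were 2397 and 21, and 3 members. The members count was 1, OTX2, with no filter, under quantile normalization and in edgeR. Scaling to the same total gave 8 wider list genes. The signs of OTX2, PAX6, MITF and RPE65 were kept in every alternative run. BEST1 turned to 0.051 under quantile normalization and ran from -0.41 to 0.19 without 1 library, where it turned to 0.12 without DMSO replicate 2, 0.19 without DMSO replicate 3 and 0.17 without CA4 replicate 1. PMEL ran from -0.063 (without DMSO replicate 2) to 0.51 and SERPINF1 from -0.11 (without CA4 replicate 2) to 0.33, and the cause was not tested. The 3 members above the median level were 3 in each alternative for levels.

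The replicate numbers were not taken as pairs, since the labels tie a number to no shared culture or day. The deviations of same-numbered libraries correlated at 0.202, 0.159 and 0.0588. Those of differently numbered libraries correlated at -0.214 to 0.0741. Every library correlated best with its own number except CA4 replicate 3. With the replicate block the adjusted p was 0.00375 for MITF and 0.00288 for OTX2 and for PAX6 in limma. Depth limits RLBP1, TYR and TYRP1, where a difference was not detectable.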

Other observations

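Genes of photoreceptors and the neural retina were low, with 7 of 12 tested and 0 past the threshold in limma (1 at an unadjusted p under 0.05, edgeR called 0 and DESeq2 called 1, beside 23%, 4.62% and 11.6% of all tested genes). GNAT1, the alpha subunit of rod transducin, had 89.8, 60.8 and 133 normalized counts in DMSO and 188, 105 and 61.3 in CA4. Its highest value was in CA4 replicate 1, and the groups overlapped. CRX, the photoreceptor factor related to OTX2, had 40.6, 28.0 and 52.2 in DMSO and 55.1, 41.5 and 54.6 in CA4. Per kilobase, GNAT1 stood at 34.3 and CRX at 6.72 in DMSO, beside 10.6 for RPE65, while RCVRN, ARR3 and NEUROD1 were under the filter and POU4F2 had 0 reads in all libraries. GNAT1 and CRX were named as among the most abundant of their list.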
